A study of Danio rerio with 6 samples.

Results

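Excitation-contraction coupling and neuromuscular junction genes were examined in whole zebrafish (Danio rerio) embryos that carried either the wild-type synpo2 allele on both chromosomes (synpo2 wt/wt) or no wild-type synpo2 allele (synpo2 -/-). The set held 10 genes, chosen by symbol from the 31484 gene IDs counted in each library, and all 10 were found: STAC3, ryr1a, ryr1b, cacna1sa and cacna1sb of the muscle triad, the acetylcholine receptor subunit genes chrna1, chrnd and chrng, and musk and rapsn, which organise the receptor at the synapse. Embryos of both genotypes were taken at 22 hours post fertilization, put into Trizol after euthanasia with Tricaine and sequenced as total RNA, with 3 biological replicates of each genotype. The labels name no other allele or treatment, and the type of mutation, the synpo2 copy it lies in, the strain and the number of embryos per library are not stated there. synpo2 encodes synaptopodin-2, which binds actin at the Z-disc of muscle.

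A skeletal muscle fibre contracts when an action potential runs along its surface and into the T-tubules, where the voltage-sensing calcium channel Cav1.1 (encoded by cacna1s) lies opposite the ryanodine receptor RyR1 of the sarcoplasmic reticulum. The channel opens the ryanodine receptor, calcium leaves the store, and the sarcomeres shorten. The adaptor protein STAC3 is needed for the channel to reach the triad and to couple. The action potential itself starts at the neuromuscular junction, where acetylcholine from the motor neuron opens a receptor. In mammals this receptor is built from alpha, beta, delta and either gamma or epsilon subunits. The kinase MuSK, activated by agrin through LRP4, and the scaffold protein rapsyn gather that receptor under the nerve ending. Zebrafish that lack chrna1, chrnd, rapsn or musk function are known as motility mutants, and the embryo makes its first spontaneous tail coils near the stage sampled here.

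Library totals ran from 32714170 to 142789686 counts, and wild type replicate 1, the deepest, held 4.26 times the mean of the others. No pair of libraries agreed within sampling noise (the lowest chi-square per degree of freedom was 31.5, for mutant replicates 2 and 3). Pairs of the same genotype were not always the closer ones. Wild type replicate 3 and mutant replicate 3 were at 35.8, and wild type replicate 3 and mutant replicate 1 at 131.3. Wild type replicates 2 and 3 were at 48.8, and mutant replicates 1 and 3 at 124.8. Of the 2 synpo2 copies of zebrafish, synpo2b was counted at 3.91 to 6.09 CPM in wild type and 1.51 to 1.71 CPM in mutants. CPM are counts per 1000000 of the library total after trimmed-mean (TMM) scaling. The copy synpo2a was not analysed here. Skeletal muscle was present in all libraries, with fast muscle markers summing to 6684 to 10904 CPM in wild type and 3634 to 6748 CPM in mutants.

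Every one of the 10 genes had a lower mean in the mutants, but edgeR called none of them and DESeq2 called 1. Their log2 fold changes, mutant over wild type, ran from -1.18 (cacna1sa) to -0.084 (ryr1b) with a median of -0.32, against a median of 0.0068 over all 20415 genes tested, of which 49.1% lay below 0. By edgeR's quasi-likelihood test with Benjamini-Hochberg adjustment over all tested genes, 0 of 10 passed an adjusted p of 0.05 (lowest 0.3, for cacna1sa), where 0.0735% of all genes did. At an unadjusted p under 0.05, 3 of 10 passed, cacna1sa, STAC3 and cacna1sb, all lower in mutants, where 6.83% of all genes passed in that direction. The 10 genes were chosen with earlier results of these data known. Their median and counts beside those of all genes are therefore descriptive and no independent test. With single libraries left out, 5 of 10 were lower at that threshold without wild type replicate 1, where 6.54% of all genes were, and 1 of 10 when mutant replicate 2 was left out (3.46% of all genes). It was 2 of 10 when mutant replicate 1 (4.58%), wild type replicate 2 (8.28%) or wild type replicate 3 (4.27%) was left out. DESeq2 called 1 of 10, cacna1sa, where it called 1.50% of all genes as lower and 2.21% in either direction, and limma-voom called 0 of 10 and 0.0833% of all genes. The genotypes' ranges in CPM lay apart for 2 of 10, STAC3 and cacna1sa, where 9.63% of all genes were lower with ranges apart. The embryos were sequenced whole, so fewer muscle cells and less RNA per muscle cell cannot be told apart in any of these values.

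**Figure D1:**
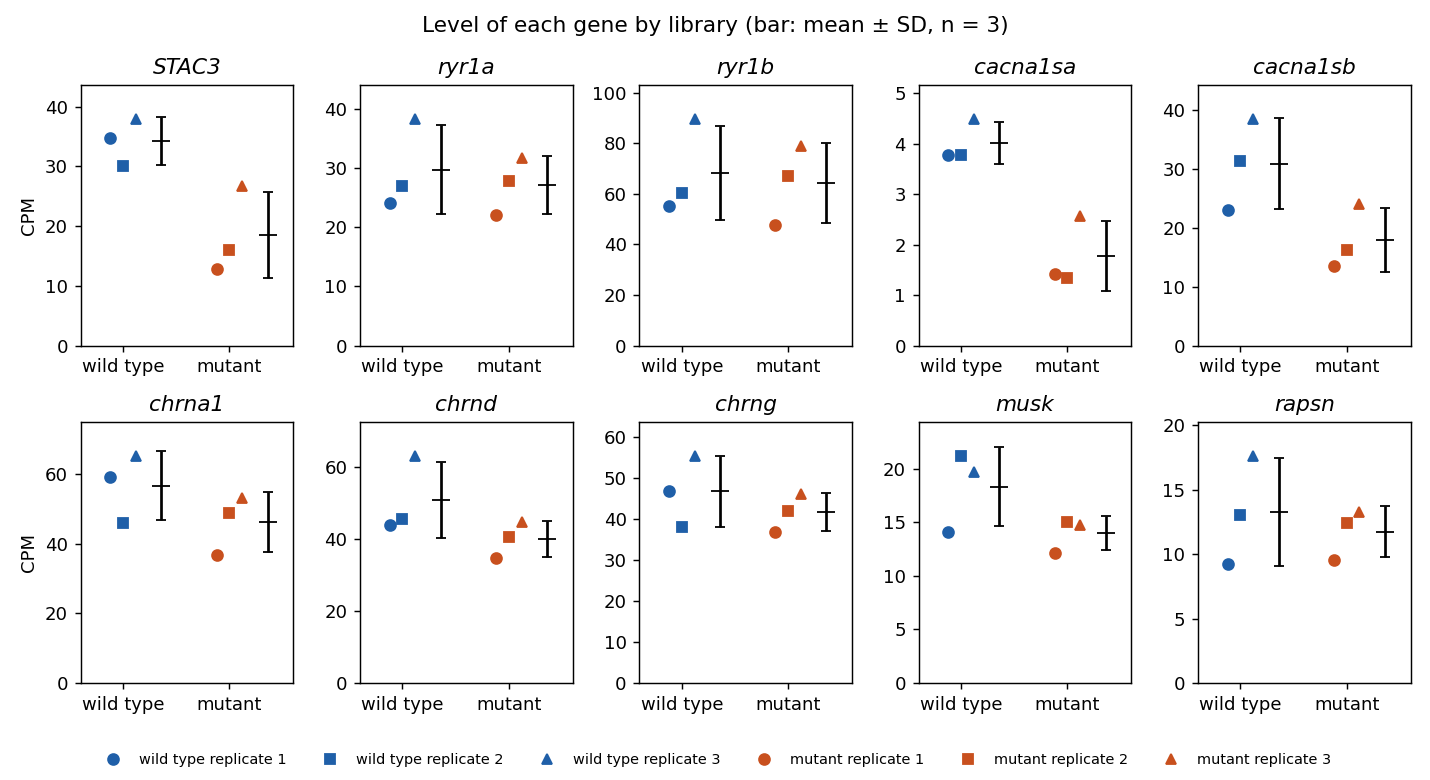
CPM of the 10 genes (vertical axes, each from 0) in the 3 wild-type and 3 mutant libraries, with symbols for the replicate number and bars for mean ± SD. STAC3 and cacna1sa are the genes whose wild-type and mutant libraries do not overlap.

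The genotypes were not evenly spaced across libraries. Wild type replicate 3 gave the highest CPM of 9 of the 10 genes, musk being the exception, and mutant replicate 1 the lowest of 8. Mutant replicate 1 lay below every wild-type library for 9 genes, mutant replicate 2 for 4 and mutant replicate 3 for 2. For the other 8 genes mutant replicate 3 was inside the range of the wild-type libraries. Without wild type replicate 3 the median log2 fold change of the 10 genes was -0.17 with 7 of 10 below 0, and without mutant replicate 1 it was -0.19 with 8 of 10 below 0.

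Among the triad genes, those of the voltage sensor and its adaptor had the lowest log2 fold changes, though edgeR called none of them. cacna1sa (CACNA1S in the name table, ENSDARG00000029457, GRCz10 chromosome 22, 895552 to 951586, minus strand) encodes one of the 2 zebrafish Cav1.1 pore subunits. It was at 3.77, 3.78 and 4.49 CPM in wild type replicates 1 to 3 and at 1.41, 1.34 and 2.56 CPM in mutant replicates 1 to 3. All mutant libraries were below all wild-type libraries, and mutant replicate 3 was the highest of the mutants. The log2 fold change was -1.18 (SE 0.31, 95% interval -1.92 to -0.44), with an adjusted p of 0.3 by edgeR and 0.0329 by DESeq2. The gene was thinly counted, with 44 to 88 counts in the mutant libraries.

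The other Cav1.1 gene, cacna1sb (CACNA1S, ENSDARG00000042552, chromosome 8, 25748471 to 25789264, plus strand), was the more abundant of the pair. It was at 23.0, 31.3 and 38.5 CPM in wild type and 13.5, 16.2 and 24.0 CPM in mutants, listed by replicate number. The groups overlapped only where mutant replicate 3 exceeded wild type replicate 1. Its log2 fold change was -0.79 (SE 0.27, interval -1.42 to -0.15, edgeR adjusted p = 0.37, DESeq2 adjusted p = 0.17).

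STAC3 (ENSDARG00000098883, chromosome 9, 308230 to 319880, plus strand) was at 34.7, 30.0 and 38.0 CPM in wild type and 12.8, 16.1 and 26.7 CPM in mutants. The 3 wild-type libraries lay close together, and the highest mutant library was at 0.889 of the lowest wild-type one. The log2 fold change was -0.89 (SE 0.27, interval -1.52 to -0.25, edgeR adjusted p = 0.338, DESeq2 adjusted p = 0.094). Leaving out single libraries moved it between -1.24 (without mutant replicate 3) and -0.66 (without mutant replicate 1).

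For the calcium release channel itself the estimates were near 0. ryr1a (RYR1, ENSDARG00000011422, chromosome 10, 33462959 to 33596476, plus strand), the RyR1 gene known mainly from slow fibres, was at 24.1, 26.9 and 38.4 CPM in wild type and 22.0, 27.8 and 31.7 CPM in mutants. ryr1b (RYR1, ENSDARG00000023797, chromosome 18, 35516112 to 35755583, minus strand), the RyR1 gene of fast fibres, was at 55.2, 60.3 and 89.6 CPM in wild type and 47.6, 66.9 and 78.9 CPM in mutants. In both, the spread within a genotype was wider than the distance between the means. The log2 fold changes were -0.13 (SE 0.22, interval -0.64 to 0.38) for ryr1a and -0.084 (SE 0.24, interval -0.66 to 0.49) for ryr1b, so a fall as large as the estimate for STAC3 lay outside both intervals, while smaller ones did not. The edgeR adjusted p values were 0.845 and 0.915. Both estimates were above 0 without wild type replicate 3 (0.093 and 0.16) and without mutant replicate 1 (0.014 and 0.11).

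**Figure D2:**
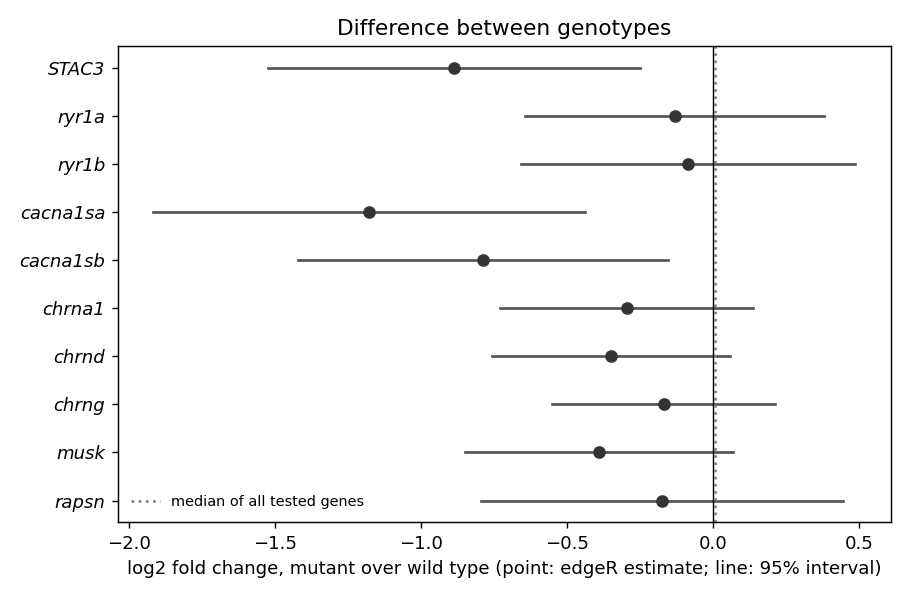
Log2 fold change, mutant over wild type, for each of the 10 genes (horizontal axis), as the edgeR estimate with its 95% interval. The intervals of STAC3, cacna1sa and cacna1sb lie below 0, and the other 7 include 0.

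The voltage sensor stood lower relative to the release channel in each mutant library than in any wild-type one. Expressed as counts per kilobase of counted exon, which allows genes to be compared, the summed cacna1s pair stood at 0.921, 1.09 and 0.915 of the summed ryr1 pair in wild type replicates 1 to 3. In mutant replicates 1 to 3 the same ratio was 0.584, 0.503 and 0.654. The ratio averaged 0.977 ± 0.102 in wild type and 0.580 ± 0.0753 in mutants (SD, n = 3 each), with no overlap. It rests on counts within a library and so does not depend on scaling between libraries. This ratio was chosen after the values of its genes were seen, and it is given without a test. Relative to the summed cacna1s pair, STAC3 stood at 2.70, 1.79 and 1.85 in wild type replicates 1 to 3. In mutant replicates 1 to 3 it stood at 1.79, 1.92 and 2.10. The means were 2.11 ± 0.514 and 1.94 ± 0.154, with ranges that overlapped, and wild type replicate 1 was the highest library. Per chrna1, the receptor gene described further on, STAC3 stood at 0.478 ± 0.031 in wild type and 0.309 ± 0.0738 in mutants without overlap. cacna1sb per chrna1 (0.207 ± 0.056 and 0.143 ± 0.0226) and ryr1b per chrna1 (0.166 ± 0.0329 and 0.190 ± 0.0129) overlapped. These ratios were also chosen with the values known and are given without a test.

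Within the paralogue pairs, the ryr1a share of the ryr1 pair was 30.9% ± 0.457 in wild type and 30.3% ± 1.56 in mutants, overlapping (exact permutation test over libraries, two-sided, p = 0.6). cacna1sa made up 15.0%, 11.5% and 11.2% of the cacna1s pair in the wild-type libraries, against 10.1%, 8.17% and 10.3% in the mutants. All mutant libraries were below all wild-type ones, and the exact two-sided p of 0.1 is the smallest that 3 against 3 allows (0.25 after Benjamini-Hochberg adjustment over 5 shares). How reads that match both paralogues were handled is not stated by the labels, so a split of such reads could enter these shares and was not tested.

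**Figure D3:**
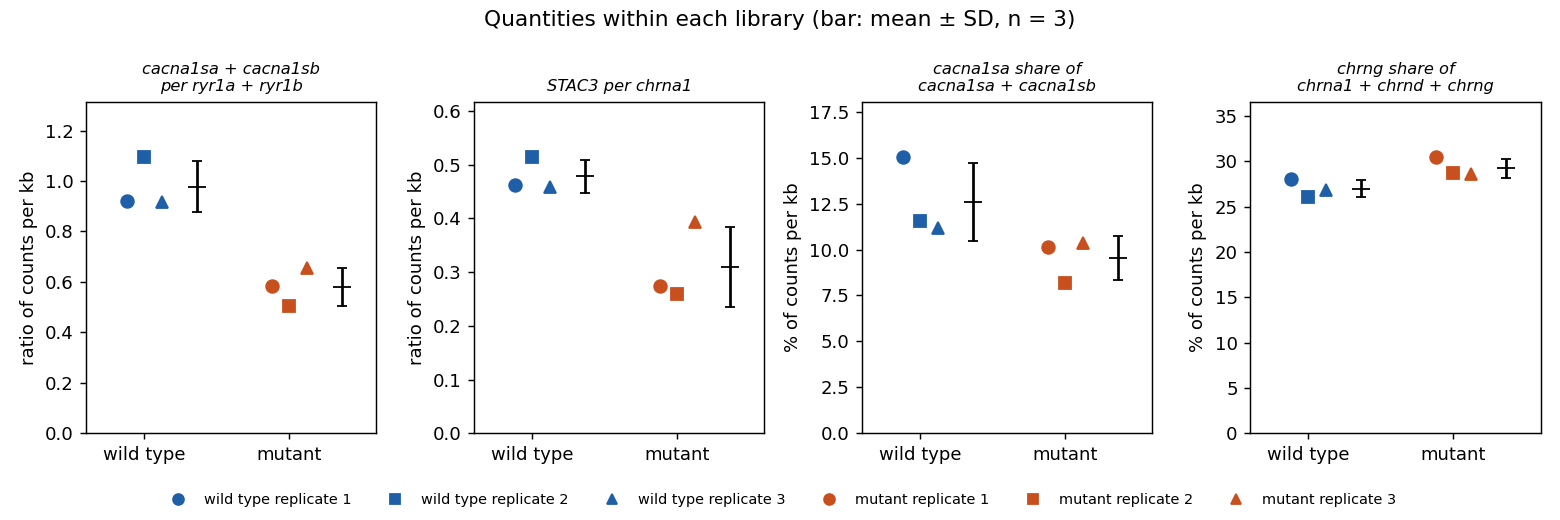
Quantities formed within each library from counts per kilobase (vertical axes from 0), with symbols for the replicate number and bars for mean ± SD. The cacna1s to ryr1 ratio lies at 0.915 or more in wild type and at 0.654 or less in mutants.

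The receptor subunit genes were the most abundant of the set per kilobase, with estimates between -0.35 and -0.17 on the log2 scale. chrna1 (ENSDARG00000009021, chromosome 6, 10576910 to 10593496, minus strand) encodes the alpha subunit, which binds acetylcholine. It was at 59.2, 46.0 and 65.2 CPM in wild type and 36.8, 48.8 and 53.3 CPM in mutants, and mutant replicates 2 and 3 lay inside the wild-type range. Its log2 fold change was -0.30 (SE 0.18, interval -0.73 to 0.14, edgeR adjusted p = 0.58).

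chrnd (ENSDARG00000019342, chromosome 24, 25538120 to 25546069, minus strand), which encodes the delta subunit, was at 43.9, 45.6 and 63.0 CPM in wild type and 34.7, 40.4 and 44.6 CPM in mutants. The overlap was slight, mutant replicate 3 exceeding wild type replicate 1. The log2 fold change was -0.35 (SE 0.17, interval -0.76 to 0.059, edgeR adjusted p = 0.499). chrng (ENSDARG00000086647, chromosome 2, 45228491 to 45244745, plus strand), the gamma subunit gene, which in mammals belongs to the embryonic form of the receptor, was at 46.8, 38.1 and 55.3 CPM in wild type and 36.8, 41.9 and 46.0 CPM in mutants. Wild type replicate 2 lay below mutant replicates 2 and 3, and the log2 fold change was -0.17 (SE 0.16, interval -0.55 to 0.21, edgeR adjusted p = 0.719).

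Within the 3 subunits, the gamma gene took a slightly larger share in mutants. chrng took 28.0%, 26.1% and 26.8% of the counts per kilobase of chrna1, chrnd and chrng in wild type and 30.5%, 28.7% and 28.6% in mutants. The mutant libraries were all above the wild-type ones, by 2.26 percentage points on average, at the smallest exact p the design allows (exact permutation test, two-sided, p = 0.1, adjusted 0.25 over 5 shares). The chrna1 share (36.4% ± 2.44 and 35.8% ± 1.78) and the chrnd share (36.7% ± 3.37 and 35.0% ± 0.740) overlapped between the genotypes.

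The remaining subunits of the muscle receptor were read from a list of other muscle receptor genes, of which 3 IDs were tested. chrne (ENSDARG00000034307), the epsilon subunit gene, averaged 29.5 ± 9.26 CPM in the wild-type libraries and 17.2 ± 8.61 CPM in the mutants (log2 fold change -0.78, SE 0.39, edgeR adjusted p = 0.501). CHRNB1 (ENSDARG00000069660), a beta subunit gene, was at 34.0, 34.1 and 53.2 CPM in wild type and at 26.1, 32.8 and 39.5 CPM in mutants (log2 fold change -0.30, SE 0.23). A second ID under the symbol CHRNB1, ENSDARG00000022532, was near absent at 0.302 and 0.199 CPM. RefSeq names both chrnb1 and chrnb1l on chromosome 7, where both IDs lie, and which ID is which was not settled. None of the 3 passed by edgeR, DESeq2 or limma-voom, or at an unadjusted p under 0.05.

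Of the genes that gather the receptor, musk (ENSDARG00000098764, chromosome 10, 13126305 to 13220867, minus strand), the receptor tyrosine kinase, was at 14.1, 21.2 and 19.7 CPM in wild type and 12.1, 15.0 and 14.7 CPM in mutants. Wild type replicate 1 was the lowest of its group and lay below mutant replicates 2 and 3. The log2 fold change was -0.39 (SE 0.20, interval -0.85 to 0.069, edgeR adjusted p = 0.501). rapsn (RAPSN, ENSDARG00000041133, chromosome 18, 20505347 to 20521949, plus strand), the rapsyn gene, was at 9.25, 13.02 and 17.6 CPM in wild type and 9.56, 12.4 and 13.3 CPM in mutants. All mutant libraries lay within the wild-type range, and the log2 fold change was -0.17 (SE 0.26, interval -0.79 to 0.45, edgeR adjusted p = 0.827). Without wild type replicate 3 the estimate for rapsn was 0.081. Per kilobase, rapsn stood at 0.140 ± 0.0339 of the 3 summed receptor subunits in wild type and 0.151 ± 0.0052 in mutants, ranges that overlapped. Wild type replicate 1 was the lowest library on this ratio, at 0.1014 against 0.1633 and 0.1565 in wild type replicates 2 and 3.

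On the scale of CPM per kilobase, the order of levels in wild type ran from chrnd (25.2), chrna1 (24.9) and chrng (18.5) through STAC3 (11.8) and rapsn (9.65) to cacna1sb (5.07), ryr1b (4.13), musk (4.01), ryr1a (1.84) and cacna1sa (0.710). The ranges over libraries separated chrng from STAC3, rapsn from cacna1sb, musk from ryr1a and ryr1a from cacna1sa, and all other neighbours overlapped. In mutants the order was chrna1 (20.3), chrnd (19.8), chrng (16.5), rapsn (8.54), STAC3 (6.40), ryr1b (3.89), musk (3.06), cacna1sb (2.94), ryr1a (1.68) and cacna1sa (0.313). There rapsn stood above STAC3, and ryr1b and musk above cacna1sb, but each of these neighbours overlapped in range. The counted length joins all annotated exons of a gene, so isoforms that use only some of them would read low on this scale.

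The 10 genes were next set against the muscle of the same library, since fast muscle markers were themselves lower on average in mutants. Their summed levels overlapped, at 6684 CPM in wild type replicate 2 and 6748 CPM in mutant replicate 3. Of 30 fast muscle marker symbols listed, 21 were matched, to 22 gene IDs, and no mylpfa, mylpfb or tnni2 gene was among them. The marker sum covers these 22 IDs. Of the 22, all tested, 22 had log2 fold changes below 0 (median -0.97), 20 of them at an unadjusted p under 0.05. Over all tested genes, 49.1% lay below 0 and 6.83% were lower at that threshold. edgeR called 0 of the 22 and limma-voom 0. DESeq2 called 9 as lower, where it called 1.50% of all genes as lower. The examples with the smallest p were eno3 (139.9 ± 27.3 and 82.3 ± 9.22 CPM), myhz2 (212.1 ± 79.5 and 59.4 ± 33.0 CPM), myhz1.2 (135.4 ± 46.2 and 41.3 ± 22.8 CPM) and pvalb1 (55.4 ± 32.2 and 5.81 ± 6.14 CPM), which encode muscle enolase, fast myosin heavy chains and parvalbumin.

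Per 1000000 fast muscle marker counts, STAC3 was at 3357, 4488 and 3481 counts in wild type and 3525, 3928 and 3951 in mutants. The genotypes overlapped, as they did for cacna1sa (447.5 ± 105 and 365.4 ± 33.3) and cacna1sb (3480 ± 1230 and 3749 ± 205). ryr1b was at 5338, 9018 and 8221 in the wild-type libraries and 13100, 16370 and 11700 in the mutants, with every mutant library above every wild-type one. The same separation was seen for ryr1a, chrna1, chrng and rapsn, with mean log2 differences of 0.85, 0.67, 0.81 and 0.83 against 0.89 for ryr1b. Dividing by a marker sum that was itself lower on average in mutants raises most genes. The median log2 difference on this scale was 0.99 over 20338 tested genes with no count of 0. Of all tested genes, 42.7% were higher with ranges apart. The 5 of 10 are near that share, and all 10 mean differences lie below that median. Each of the 5 separated genes had an exact permutation p of 0.1 (two-sided, the smallest possible, 0.2 after adjustment over 10 genes). chrnd and musk overlapped.

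The same was done with slow muscle markers as the denominator. Summed, these markers were at 1565 to 2117 CPM in wild type and 1224 to 1618 CPM in mutants, with overlap. The main slow myosin gene of the embryo, smyhc1, was at 885.6 ± 115 and 636.0 ± 108 CPM. Of 11 slow muscle markers tested, 9 had log2 fold changes below 0 (median -0.36). At an unadjusted p under 0.05, 3 were lower, where 6.83% of all genes were. edgeR, DESeq2 and limma-voom called 0 of the 11. Per slow muscle marker count, STAC3 (mean log2 difference -0.59) and cacna1sa (-0.88) were lower in every mutant library than in any wild-type one, and chrng (0.20) was higher. Over all tested genes 2.55% were lower and 23.8% higher with ranges apart on this scale, and the median log2 difference was 0.38. The other 7 genes overlapped. Whether the amount of fast or slow muscle, or its stage, accounts for any of these differences was not tested.

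**Figure D4:**
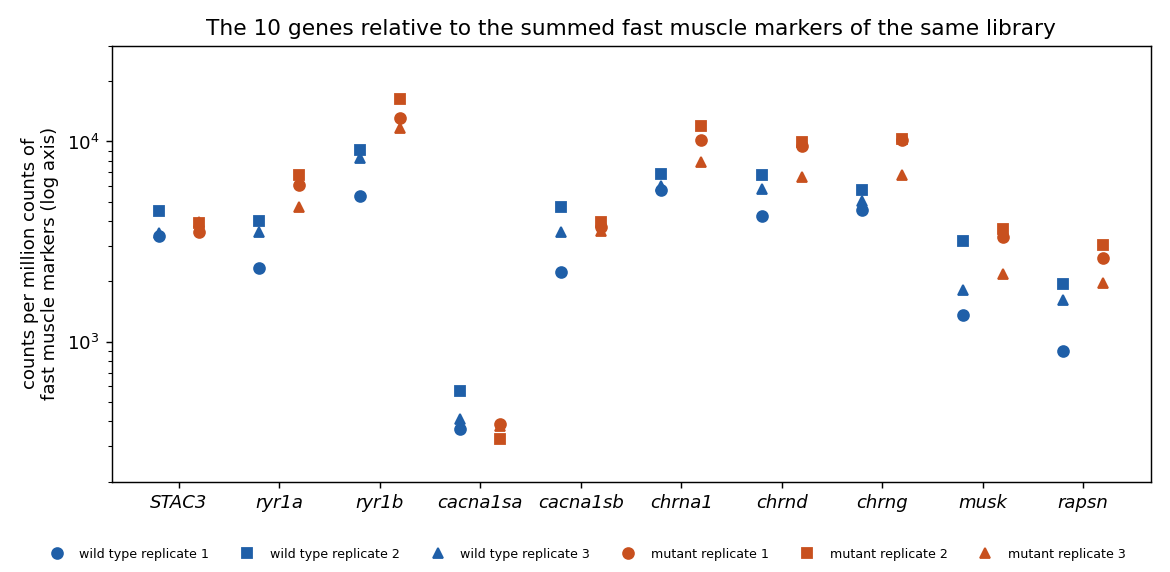
Counts of each of the 10 genes per 1000000 counts of the fast muscle markers in the same library (log axis), with symbols for the replicate number. ryr1a, ryr1b, chrna1, chrng and rapsn are higher in all mutant libraries than in all wild-type ones, and STAC3, cacna1sa and cacna1sb overlap; 42.7% of all tested genes are higher with ranges apart on this scale, where the median log2 difference of all genes is 0.99.

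Other genes of the triad, the T-tubule and the sarcoplasmic reticulum were mostly lower in mutants. Of 41 tested, 31 lay below 0, with a median log2 fold change of -0.29. edgeR called 0 in either direction. At an unadjusted p under 0.05, 13 were lower, where 6.83% of all genes were, and 1 was higher. DESeq2 called 3 lower, where it called 1.50% of all genes as lower, and limma-voom called 0. The casq1 pair, calsequestrin genes whose products hold calcium in the store, had the smallest p, with casq1a averaging 14.2 ± 4.74 CPM in the wild-type and 4.69 ± 1.63 CPM in the mutant libraries (log2 fold change -1.59, DESeq2 adjusted p = 0.00163). casq1b was at 7.72 ± 2.27 and 2.45 ± 1.37 CPM (-1.65, DESeq2 adjusted p = 0.0113), and atp2a1, the calcium pump of fast muscle, at 2607 ± 574 and 1449 ± 373 CPM (-0.85, DESeq2 adjusted p = 0.0457). sypl2b, another gene of this list, was at 27.8 ± 4.97 and 18.3 ± 1.11 CPM (-0.61). The gene that was higher at an unadjusted p under 0.05 was mtm1, the phosphoinositide phosphatase myotubularin, at 38.3 ± 1.53 and 47.9 ± 2.84 CPM (0.32, edgeR adjusted p = 0.34), and it was named after its values were seen. The junctophilin gene jph1b, which ties T-tubule to store (-0.76), triadin, trdn (-0.93), and a further ryanodine receptor gene, ryr3 (-1.32), were also named after their values were seen, and were among the 13.

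The other postsynaptic and synaptic cleft genes had a median near 0. Of 33 tested, 11 lay below 0, and the median was 0.065. edgeR, DESeq2 and limma-voom called 0, and at an unadjusted p under 0.05, 1 was lower and 2 were higher. Over all tested genes, 11.2% passed that threshold in either direction and 6.83% as lower. lamb2, a laminin chain of the synaptic basal lamina in mammals, was at 69.4 ± 14.4 and 47.5 ± 9.35 CPM (-0.55), and ache, the acetylcholinesterase gene, at 15.2 ± 3.07 and 9.72 ± 3.48 CPM (-0.65). gabpa, an ETS transcription factor gene linked in mammals to synaptic transcription in muscle, was at 88.8 ± 8.07 and 108.8 ± 9.11 CPM (0.29), and the syntrophin gene sntb2 at 31.5 ± 4.36 and 40.5 ± 5.92 CPM (0.37). Many genes of this list are used in tissues other than muscle.

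On the nerve side, 15 of 19 motor neuron and presynaptic genes lay below 0 (median -0.25), and 0 were called by any of the 3 tools or passed an unadjusted p under 0.05. The lowest p belonged to snap25b, a gene of the vesicle fusion machinery, at 3.72 ± 1.79 and 1.92 ± 0.813 CPM, whose ranges overlapped. The motor neuron factor gene lhx4 (10.7 ± 2.71 and 7.64 ± 1.62 CPM), the synaptic vesicle gene sv2a (15.1 ± 3.89 and 10.4 ± 3.54 CPM) and the growth cone gene gap43 (57.8 ± 24.8 and 39.3 ± 9.70 CPM) overlapped as well. Among 11 tested nicotinic subunits known mainly from neurons, 8 lay below 0 (median -0.31), with 0 called by edgeR, DESeq2 or limma-voom. At an unadjusted p under 0.05, 4 were lower, where 6.83% of all genes were. The 4 were chrnb5b, chrna2b, chrna3 and chrnb3a, with log2 fold changes of -1.60, -0.76, -0.85 and -0.65. They were at 0.460, 2.75, 1.70 and 6.09 CPM in wild type, far under chrna1.

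Myogenic regulators lay on both sides of 0. Of 23 tested, 13 lay below 0 (median -0.090). edgeR and limma-voom called 0, and DESeq2 called 1 lower, where it called 1.50% of all genes as lower. At an unadjusted p under 0.05, 5 were lower, where 6.83% of all genes were, and 1 was higher. pax7b and pax7a, transcription factors of muscle precursors and neural crest, were at 44.9 ± 3.90 and 26.4 ± 6.21 CPM (-0.77, DESeq2 adjusted p = 0.0248) and at 46.9 ± 0.863 and 28.4 ± 9.23 CPM (-0.72). mef2cb, a MADS-box factor of differentiating muscle, was at 45.6 ± 5.72 and 33.4 ± 3.70 CPM (-0.45), while myf5, which acts at the start of myogenesis, was at 12.6 ± 0.436 and 19.5 ± 5.08 CPM (0.63). Beside them, 8 of 8 tailbud and presomitic mesoderm markers lay above 0 (median 0.59), 6 at an unadjusted p under 0.05. Over all tested genes, 49.1% lay below 0, and 11.2% passed that threshold in either direction. Of the 8, cdx4, msgn1, tbx16 and her1 were at 0.73, 0.84, 0.71 and 0.54. Summed, the 8 tailbud markers were at 238.1 to 251.8 CPM in wild type and 299.3 to 400.9 CPM in mutants, without overlap. edgeR called 0 of the 8 and limma-voom 0. DESeq2 called 2, where it called 2.21% of all genes in either direction. Heart markers (median 0.16 over 5) and markers of neurons (median -0.24 over 8) overlapped in summed level. Of the neuron markers 8 of 8 lay below 0, with 1, nefma (-0.89), at an unadjusted p under 0.05. Of the heart markers 2 of 5 lay below 0, with 0 at that threshold. edgeR, DESeq2 and limma-voom called 0 in both lists. No marker list had a gene at 0 counts in all libraries. The part of muscle content, stage or cell composition in the values of the 10 genes was not tested.

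**Figure D5:**
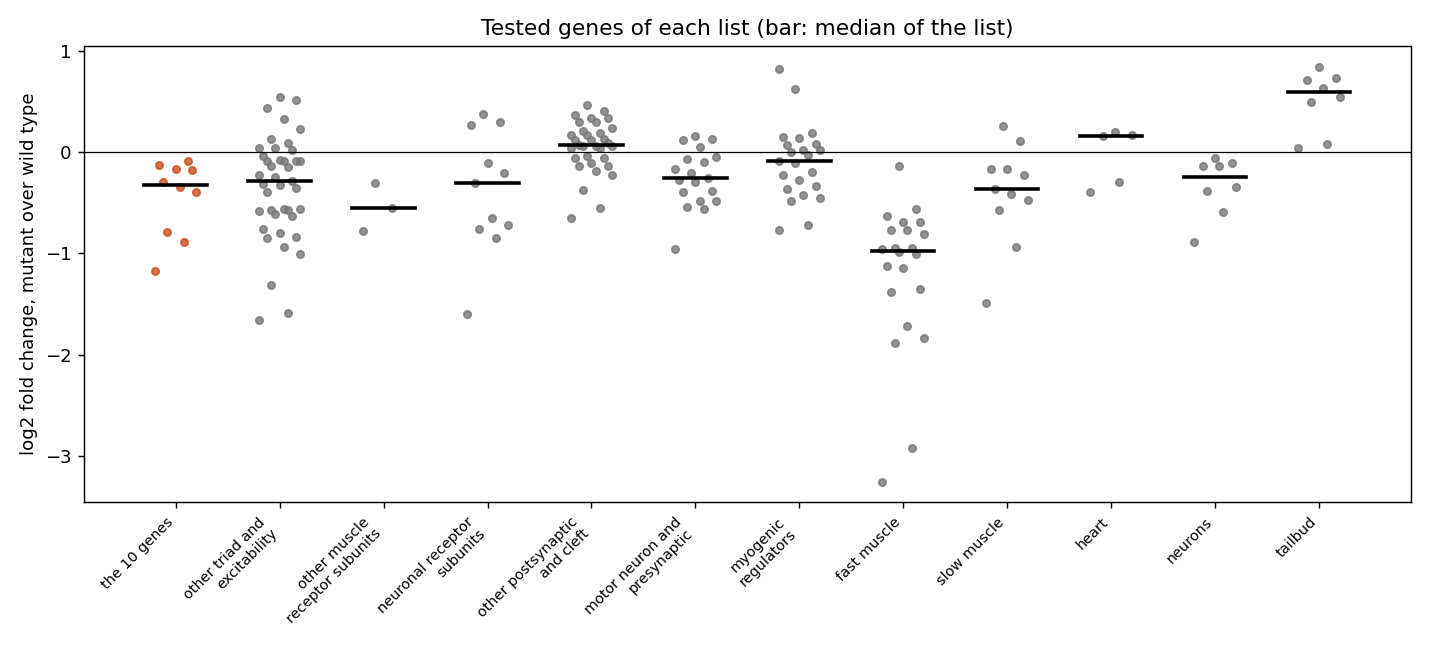
Log2 fold change, mutant over wild type (vertical axis), of every tested gene in each list, with bars for the list medians. The 10 genes have a median of -0.32, the fast muscle markers -0.97 and the slow muscle markers -0.36. The other postsynaptic and cleft genes have a median of 0.065 and the tailbud markers 0.59.

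The profiles of the 10 genes across the 6 libraries were compared with each other. Likeness was measured as the root mean square difference between log2 CPM values centred on each gene's mean, over 6 libraries. This measure takes in the size of the differences between libraries as well as their shape. ryr1a and ryr1b were nearest to each other (0.066), as were chrna1 and chrng (0.10) and STAC3 and cacna1sa (0.19). STAC3 was also the nearest gene to cacna1sb (0.24), ryr1a was the nearest to chrnd (0.13) and rapsn (0.10), and chrnd the nearest to musk (0.19). cacna1sa was the farthest from 7 of the other genes, up to 0.62 from rapsn and ryr1b. Among 14641 other genes with a symbol and a mean of at least 1 CPM, the 5 nearest to the median profile of the 10 were USP13 (ENSDARG00000079198, 0.077), actc1a (ENSDARG00000042535, 0.078), CHRNB1 (ENSDARG00000069660, 0.080), KLHL41 (ENSDARG00000006757, 0.087) and SVIL (ENSDARG00000055075, 0.088). CHRNB1 is the more abundant of the 2 IDs under that symbol described above, actc1a encodes an alpha actin of striated muscle, KLHL41 a sarcomere-associated kelch protein and SVIL the actin-binding protein supervillin. These 5 had log2 fold changes from -0.42 (KLHL41) to -0.19 (SVIL), and none passed by edgeR (adjusted p from 0.383 to 0.652). The median profile holds the difference between genotypes, so fold changes like those of the 10 genes follow from how these 5 were picked.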

How the data were processed

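The authors deposited raw counts per gene, whole numbers for 31484 Ensembl gene IDs in each of 6 libraries, with exon coordinates and exon length. Trimmomatic 0.36, STAR 2.5.2b and GRCz10 are named per the submitters' processing notes. The counting program, strand setting, handling of multiply mapped reads and annotation release were not stated by the labels or headers, so overlapping genes cannot be told apart. Symbols were matched for 25752 IDs. For 4 genes (ryr1a, ryr1b, cacna1sa and cacna1sb) the table gives the shared name RYR1 or CACNA1S, and the copies were told apart by the chromosome of the RefSeq symbol (GRCz12tu).

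Sample titles gave the genotype and the replicate number. The low-count filter was filterByExpr (edgeR 4.0.16, R 4.3.3), which passed 20415 genes, all 10 among them. Counts were scaled by TMM and tested with the quasi-likelihood F test (robust, two-sided, no covariate), with Benjamini-Hochberg adjusted p under 0.05 over all kept genes. The SE was taken as the absolute log2 fold change over the root of the F statistic. DESeq2 1.42.0 and limma-voom (limma 3.58.1) were alternatives. Log2 CPM used a prior count of 2. The spread between libraries exceeds counting error, and the smallest exact p with 3 against 3 libraries is 0.1. P-values set the difference between genotypes against the spread between these libraries.

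The 10 genes and all gene lists were chosen with earlier results of these data known. At most 4 genes per list were named by smallest p, besides all muscle receptor subunits and the 5 nearest profiles, and genes named outside this rule are said to be. The edgeR fit was tested on simulated counts for mutant against wild type over 20156 genes. It recovered 30% of genes changed by 2-fold and 82% at 4-fold, and 9 of its calls were false. Of the calls by DESeq2 on these counts, 79 were false, while it found 46% of the 2-fold changes and 98% of the 4-fold ones. For limma-voom 12 calls were false. In this simulation an adjusted p under 0.05 was thus a looser threshold by DESeq2 than by edgeR. It was a single run that drew each gene independently, with dispersions estimated by edgeR. Genes that vary together between libraries were not simulated, so the false calls in the real data may differ. A planned display of protein and promoter sequences was not made, since no sequences were used here.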

Additional observations from a re-analysis of the deposited data

How the results depend on the processing

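The count of 15 genes called was 44 with no filter, 8 with at least 1 CPM in 3 libraries, 450 with DESeq2 and 3 at an adjusted p under 0.01. It was 0 with the replicate number as a block (1649 at an unadjusted p under 0.05), and 0 to 16 with single libraries left out. It was 0 without mutant replicate 2 (1184 genes had an unadjusted p under 0.05), 2 without wild type replicate 3 or mutant replicate 1, and 8 without mutant replicate 3. Same-numbered libraries deviated with correlations of -0.23, -0.097 and 0.18 for replicates 1, 2 and 3. Only replicate 3 correlated best with its own number. These few values do not show that the numbers pair the libraries, and they are too few to exclude it.

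The count of 0 called among the 10 genes was 1 with DESeq2 and stayed 0 with the other alternatives, the replicate block and each left-out library included. With the replicate block, 4 of the 10 had an unadjusted p under 0.05 by edgeR, where 1649 of all 20415 genes did in either direction. The median log2 fold change of the 10 genes ran from -0.42 to -0.17 with single libraries left out. Single left-out libraries gave ryr1a -0.26 to 0.093, ryr1b -0.25 to 0.16 and rapsn -0.38 to 0.081, and the other 7 genes were below 0 under every alternative run. Among these, left-out libraries moved chrna1 between -0.41 and -0.14, chrnd between -0.44 and -0.17, chrng between -0.27 and -0.031, musk between -0.55 and -0.25, cacna1sa between -1.54 and -1.005, cacna1sb between -1.05 and -0.60 and STAC3 between -1.24 and -0.66. The values nearest 0 came without mutant replicate 1 (chrna1 and STAC3), mutant replicate 2 (cacna1sa), wild type replicate 2 (musk) or wild type replicate 3 (chrnd, chrng and cacna1sb). They moved the ryr1a share difference between -1.40 and 0.096 percentage points and that of chrna1 between -1.34 and 0.81. Per fast muscle marker count, they moved the log2 difference of STAC3 between -0.058 and 0.15 (0.020 with all libraries) and of cacna1sb between -0.12 and 0.42 (0.17). With slow muscle markers as denominator, STAC3 was at -0.59, cacna1sb at -0.44 and musk at -0.016, each above 0 with fast markers. Counts under 100 limit cacna1sa in mutants. The causes were not tested.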
